A study of Mus musculus with 12 samples.

Results

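The genes that encode the suppressive effector molecules of regulatory T cells (Treg) were followed across 4 groups of mouse Treg. They are Il10, Ebi3, Il12a, Gzmb, Prf1, Fgl2 and Areg, 7 of the 36222 genes in the expression table, chosen by symbol and not by their values, and each symbol belonged to 1 gene identifier. All animals carried Foxp3-YFP-Cre, in which the Foxp3 gene drives a Cre recombinase and a yellow fluorescent protein (YFP). The wild-type (WT) mice carried only this allele, and the conditional knockout (cKO) mice carried in addition a floxed Ikzf1, so that Ikaros, the transcription factor encoded by Ikzf1, is lost in cells that express Foxp3. The mice were age-matched at 6 to 8 weeks, of the B6 background, and the libraries came from YFP-positive Treg sorted from individual animals, from spleen by the labels. Whether an ex vivo and a stimulated library of a genotype share an animal is not stated in the sources used here. RNA was taken directly from the sorted cells (ex vivo) or after 4 h on a surface coated with antibodies against CD3 and CD28, 1 µg/ml of each (stimulated). Both conditions of both genotypes had 3 libraries, 12 in all. The Cre acts only once Foxp3 is expressed, and the stimulated cells differ from the ex vivo cells also in their time in culture, so the antibodies and the culture cannot be told apart.

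Treg restrain other immune cells through several secreted and cell-surface molecules. IL-10 (Il10) acts on macrophages, dendritic cells and T cells through a receptor made of IL-10RA and IL-10RB. EBI3 pairs with the p35 chain of IL-12 (Il12a) to form IL-35, and with the p28 chain (Il27) to form IL-27. Perforin (Prf1) opens the target membrane to granzyme B (Gzmb), both stored in cytotoxic granules. FGL2 is a secreted fibrinogen-like protein that engages inhibitory Fc receptors, and amphiregulin (Areg) is an EGF family growth factor through which Treg aid tissue repair. In T cells these genes are associated with the effector state, driven among others by Blimp-1 (Prdm1), IRF4 and the AP-1 factor BATF.

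The libraries held 8208659 to 20247649 reads assigned to genes, with the fewest in cKO stimulated 3. A single gene model, Gm10800, held between 17.7% and 55.9% of the deposited TPM, a transcript level per length and library total, which lowers the TPM of the other genes unevenly. Levels are therefore given as scaled TPM, that is, the TPM divided by a factor per library computed from genes of at least 5 TPM. Ikzf1 was lower in every cKO library than in every WT library, at 33.0 to 42.1 against 103.6 to 113.5 scaled TPM ex vivo and at 23.3 to 30.1 against 66.7 to 71.1 after stimulation. Before stimulation it fell by 1.52 (log2, SE 0.11, adjusted p = 0.000102), and after it by 1.29 (SE 0.11, adjusted p = 0.000185), in the direction the labels give. The value covers the whole gene, not the floxed exons alone. The defining transcripts of Treg were abundant in all libraries, with Foxp3 at 88.6 to 240.0 and Ctla4 at 200.6 to 829.2 scaled TPM. The summed level of 7 T cell genes was 2885 to 3413 in WT and 2942 to 3191 in cKO ex vivo, but 1856 to 2042 in WT and 1244 to 1573 in cKO after stimulation. All 7 were called lower with stimulation in both genotypes, and Cd3d (-0.61, adjusted p = 0.0302), Trac (-0.63, 0.0302), Trbc1 (-0.69, 0.0419) and Cd28 (-0.68, 0.0057) were called lower in stimulated cKO than in stimulated WT. The part of this shift in the stimulated comparisons was not tested. WT ex vivo 3 was the only library with Xist, at 179 TPM against at most 1.36 TPM elsewhere, and the only one with Ddx3y near 0 (0.097 TPM), so 1 WT ex vivo animal was female by its transcripts. The WT stimulated libraries had Ddx3y at 31.4 to 35.2 TPM, so by these transcripts none of them came from that animal. Among transcripts that mark other cells, Cd8a reached at most 4.52, Ncr1 of NK cells 4.47, Lyz2 of macrophages 2.33 and S100a8 of neutrophils 2.92 scaled TPM, while Cd8b1 stood at 6.78 to 11.3. As a measure of the level of silent genes, 1716 genes of olfactory and vomeronasal receptors had group medians of 0.726 (WT) and 0.746 (cKO) scaled TPM ex vivo, and of 0.871 (WT) and 1.18 (cKO) after stimulation.

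A gene was tested if it reached a mean of 3 TPM in any group, and it was called when its Benjamini-Hochberg adjusted p, over all 21241 tested genes of a comparison, was under 0.05. Among the members 6 were tested, and Il12a was too low. Ebi3 was higher in cKO in both conditions, while with stimulation Areg, Ebi3 and others fell and Fgl2 rose. Ex vivo, 1 of the 6 tested members was called higher and 1 lower in cKO than in WT, against 2.62% of all tested genes called, 1.89% higher and 0.725% lower. The lower member is Prf1, which passed the filter only through WT ex vivo, where it is high (4.60 TPM as deposited against 2.06 to 2.65 in the other groups), so the tests of the genotype ex vivo, of stimulation in WT and of the interaction all contain the group that let it pass. After stimulation 1 member was called higher and none lower in cKO, against 3.56% of genes, 1.91% higher and 1.66% lower. Stimulation gave 1 higher and 4 lower members in WT, Prf1 among the latter, against 18.8% of genes, 7.77% higher and 11.0% lower. In cKO it gave 1 higher and 3 lower, against 36.8% of genes, 20.6% higher and 16.2% lower. In no member did the effect of stimulation differ between the genotypes past the threshold in limma's test of the interaction, which called 0.419% of genes. In that test 2337 of the 21241 had an unadjusted p under 0.05, among them Gzmb (0.0262), Areg (0.026) and, with the limit given above, Prf1 (0.00706). The median change of the tested members was -0.23 (log2) for the genotype ex vivo, 0.36 for the genotype after stimulation, -0.80 for stimulation in WT and -0.36 for stimulation in cKO. The corresponding medians of all tested genes were 0.001, 0.096, 0.146 and 0.276. The member medians for the genotype ex vivo and for stimulation in WT include Prf1, with the limit given above, and join members that changed in opposite directions.

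**Figure D1:**
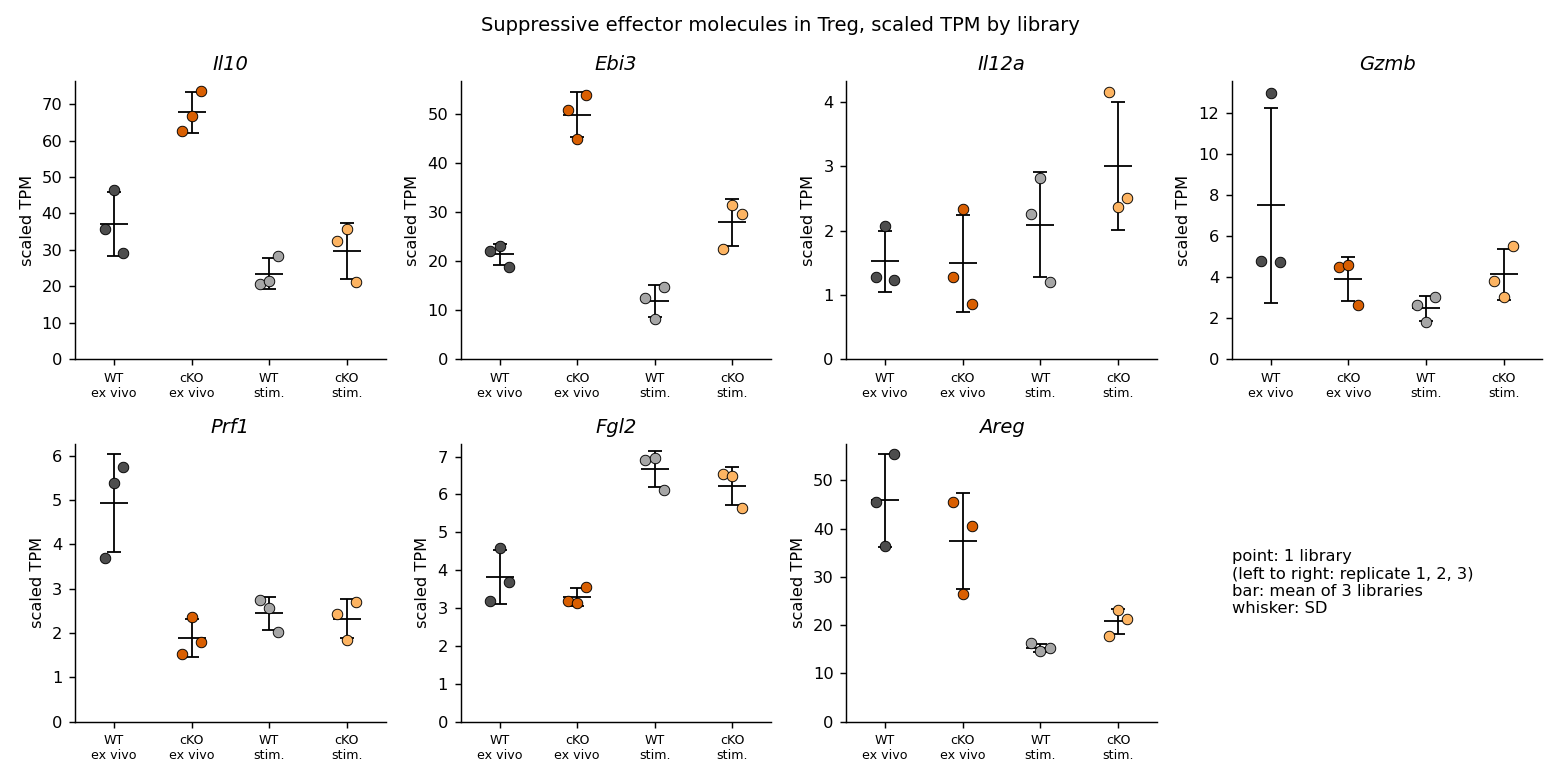
Scaled TPM of the 7 members in each of the 12 libraries, 1 panel a gene, with the vertical axis in scaled TPM from 0; points are libraries, bars the mean and whiskers the SD of 3 libraries. Ebi3 in cKO ex vivo (44.97 to 54.0) lies above WT ex vivo (18.9 to 23.1), Fgl2 is higher after stimulation in both genotypes, and the Gzmb library WT ex vivo 2 (13.0) stands apart.

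Il10 (ENSMUSG00000016529, mm9 chromosome 1, 132916422 to 132921551, plus strand) was among the more abundant members, above 91.0% of tested genes in WT ex vivo. Ex vivo it stood at 35.7, 46.5 and 29.2 scaled TPM in WT and at 62.7, 66.9 and 73.7 in cKO. All cKO libraries lay above all WT libraries, as for 8.76% of tested genes in this comparison, and 15.9% did not overlap in one direction or the other. The means were 67.7 ± 5.54 in cKO and 37.1 ± 8.72 in WT (SD, n = 3 each). The difference of 0.87 (log2, SE 0.21, 95% interval 0.42 to 1.33) had an adjusted p of 0.053 and missed the threshold. It was called in 4 of 21 alternative fits, among them the one that tested only genes of at least 5 TPM (adjusted p = 0.0366), with a range of 0.0188 to 0.326. In bulk RNA a larger share of cells that express a gene and more transcript per cell cannot be told apart.

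After stimulation Il10 was at 20.5, 21.6 and 28.2 scaled TPM in WT and at 32.4, 35.8 and 21.1 in cKO. Here the genotypes overlapped, and the difference of 0.31 (95% interval -0.14 to 0.77, adjusted p = 0.401) did not pass. This difference was 0.14 to 0.564 with 1 library left out. It was 0.033 with the TPM as deposited and 0.021 with scaling over genes of at least 1 TPM. Stimulation lowered Il10 in cKO by 1.19 (log2, SE 0.21, adjusted p = 0.00164), a call kept in all 21 alternatives. In WT the change was -0.63 (SE 0.21, adjusted p = 0.0557), not past the threshold, although the highest stimulated WT library (28.2) lay below the lowest ex vivo one (29.2), as for 17.2% of tested genes. The difference between these responses was -0.56 (95% interval -1.20 to 0.08, adjusted p = 0.499). With 1 library left out it was -0.731 to -0.295, and with the TPM as deposited -1.074. In the order of its group means Il10 was highest in cKO ex vivo, followed by WT ex vivo, cKO stimulated and WT stimulated, and of these neighbours WT ex vivo and cKO stimulated overlapped, as did the stimulated groups.

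Ebi3 (ENSMUSG00000003206, mm9 chromosome 17, 56092046 to 56096444, plus strand, overlapped on the other strand by Gm16712) was the member that followed the genotype in both conditions. Ex vivo it was at 22.1, 23.1 and 18.9 scaled TPM in WT and at 51.0, 44.97 and 54.0 in cKO. After stimulation it was at 12.4, 8.26 and 14.7 in WT and at 22.6, 31.5 and 29.7 in cKO. No cKO library overlapped a WT library of the same condition, with cKO above WT for 8.76% of tested genes ex vivo and 17.1% after stimulation, where 28.7% did not overlap in either direction. Ebi3 rose in cKO by 1.19 (log2, SE 0.18, adjusted p = 0.00741) in the ex vivo cells. The rise in the stimulated cells was 1.20 (SE 0.18, adjusted p = 0.0050). In means that is 49.96 ± 4.57 against 21.4 ± 2.21 ex vivo and 27.9 ± 4.74 against 11.8 ± 3.26 after stimulation (SD, n = 3 each). The summed T cell genes were lower in the same stimulated cKO libraries (1244 to 1573 against 1856 to 2042). Each Ebi3 call held in all 12 fits that left out a library and was lost only under another scaling, ex vivo at an adjusted p of 0.0857 and after stimulation at 0.106 and 0.177.

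Ebi3 fell with stimulation in both genotypes, by 0.84 (SE 0.18, adjusted p = 0.00832) in WT and by 0.83 (SE 0.18, adjusted p = 0.00683) in cKO. The difference between these changes was 0.01, with a 95% interval of -0.56 to 0.58. The level of cKO Treg after stimulation (22.6 to 31.5) lay beside that of WT Treg ex vivo (18.9 to 23.1), with 1 library within that range. In the order of means Ebi3 was highest in cKO ex vivo, then in cKO stimulated, WT ex vivo and WT stimulated.

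Because Ebi3 is also expressed by B cells and myeloid cells, markers of these were set beside it. Of the B cell markers, Cd79b, a chain of the B cell receptor complex, was at 4.95 to 8.15 scaled TPM in WT and at 10.3 to 11.0 in cKO ex vivo, and at 2.43 to 5.50 and 6.51 to 8.64 after stimulation. Like Ebi3 it did not overlap between the genotypes in either condition, nor did the sum of Cd79b, Cd79a, Ms4a1 and Pax5, at 8.76 to 13.4 in WT and 15.5 to 17.6 in cKO ex vivo and at 9.53 to 11.1 and 14.6 to 21.8 after stimulation. Ex vivo Cd79b was the largest part of that sum in every library, so there the sum is no separate measure. The other genes of the sum, Ms4a1 (0.884 to 1.49 in WT and 0.958 to 1.55 in cKO), Cd79a (0.999 to 1.86 and 1.16 to 2.54) and Pax5 (1.93 to 3.86 and 2.28 to 3.25), overlapped ex vivo. After stimulation Ms4a1 (1.15 to 1.23 and 2.09 to 4.24) and Pax5 (2.72 to 3.496 and 3.51 to 6.64) did not overlap, and Cd79a (1.73 to 3.00 and 1.72 to 2.62) did. Cd79b differed by 0.70 (log2, adjusted p = 0.17, not called) ex vivo and rose by 0.96 (adjusted p = 0.0429) after stimulation. The summed markers of macrophages and monocytes overlapped between the genotypes ex vivo, at 13.4 to 18.4 in WT and 13.1 to 19.2 in cKO. The part of other cells in the Ebi3 values was not tested.

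The promoter of Ebi3 is shown because Ebi3 was the only member called for the genotype in both conditions, and those of Prf1, Fgl2 and Areg as the only member called lower in cKO, the only one called higher with stimulation and the one with the largest fitted fall. The windows, credited to RefSeq on build GRCm38.p6, run from 250 bases before to 50 bases after the annotated start and lie at chr17:55952373-55952672, chr10:61297586-61297885, chr5:21372423-21372722 and chr5:91139349-91139648, all on the plus strand, in the order in which they stand here. Capitals mark GGGAA, the core motif bound by Ikaros, or TTCCC where it lies on the other strand. Of the 7 members, 6 had an entry, and Il10 had none.
Ebi3: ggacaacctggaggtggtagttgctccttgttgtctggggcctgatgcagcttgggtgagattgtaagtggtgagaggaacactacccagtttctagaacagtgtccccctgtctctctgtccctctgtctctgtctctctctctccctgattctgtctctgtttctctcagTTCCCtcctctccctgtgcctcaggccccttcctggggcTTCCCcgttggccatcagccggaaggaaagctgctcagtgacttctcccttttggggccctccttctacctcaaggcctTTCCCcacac
Prf1: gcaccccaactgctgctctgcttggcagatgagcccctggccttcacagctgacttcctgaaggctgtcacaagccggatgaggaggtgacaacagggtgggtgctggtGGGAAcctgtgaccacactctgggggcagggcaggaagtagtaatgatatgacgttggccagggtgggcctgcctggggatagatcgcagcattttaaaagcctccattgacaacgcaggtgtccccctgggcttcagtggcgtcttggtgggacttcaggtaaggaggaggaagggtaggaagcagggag
Fgl2: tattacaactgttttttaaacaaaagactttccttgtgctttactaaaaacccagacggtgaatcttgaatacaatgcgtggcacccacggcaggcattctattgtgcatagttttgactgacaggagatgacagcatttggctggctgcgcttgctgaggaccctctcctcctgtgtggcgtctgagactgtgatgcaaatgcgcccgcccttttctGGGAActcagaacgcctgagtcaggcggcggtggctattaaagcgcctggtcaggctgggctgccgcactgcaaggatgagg
Areg: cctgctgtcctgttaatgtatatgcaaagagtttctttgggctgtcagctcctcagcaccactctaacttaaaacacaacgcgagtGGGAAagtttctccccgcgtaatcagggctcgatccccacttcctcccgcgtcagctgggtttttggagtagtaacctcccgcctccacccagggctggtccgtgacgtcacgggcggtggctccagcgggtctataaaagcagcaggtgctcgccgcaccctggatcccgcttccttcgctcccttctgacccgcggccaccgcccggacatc
The Ebi3 window held 3 matches to GGGAA, all as TTCCC, that begin at -78, -39 and 41 counted from the start. Prf1 held 1 at -141, Fgl2 1 at -32 and Areg 1 at -164, each of 2 annotated Il12a windows held 1, and Gzmb held none. Among all 32851 promoter windows of this length, 62.7% held the motif on either strand, and its presence is therefore common. GGAAA, the NFAT core, which can share bases with GGGAA, was found in Ebi3, Fgl2, Areg and 1 of the Il12a windows and in 61.3% of all windows, and TGANTCA (AP-1) in Fgl2 at -16, in Gzmb at -58 and in 7.81% of all windows. GTAAACA (forkhead), found in 3.65% of windows, was in no member's window. A match is a description of the sequence, and whether a factor binds there was not tested.

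Il12a (ENSMUSG00000027776, mm9 chromosome 3, 68494566 to 68502469, plus strand), the partner of EBI3 in IL-35, was read only 15 to 41 times per library. It was at 1.27, 2.07 and 1.23 scaled TPM in WT ex vivo and at 1.28, 2.33 and 0.855 in cKO ex vivo. After stimulation it was at 2.25, 2.82 and 1.21 in WT and at 4.16, 2.37 and 2.51 in cKO. In cKO all stimulated libraries lay above all ex vivo libraries, by 2.37 against 2.33 at the nearest, as for 29.6% of tested genes, and the other comparisons overlapped. These levels are close to those of genes that T cells do not use. By group mean, Il12a lay above 92.3% of the silent receptor genes in WT ex vivo and above 98.7% in cKO stimulated, and in single libraries above 65.6% to 99.7%. With the filter lowered to 1 TPM no comparison called it, with -0.05 (log2, adjusted p = 1.0) for the genotype ex vivo and 0.38 (adjusted p = 0.515) after stimulation. Its change with stimulation was 0.27 (adjusted p = 0.624) in WT and 0.70 (adjusted p = 0.0965) in cKO, in a fit in which the silent receptor genes themselves had median changes of 0.16 and 0.36.

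The subunits of the EBI3 dimers were unequal in transcript level. Per length, Ebi3 exceeded Il12a 11.2-fold to 17.4-fold in the WT ex vivo libraries and 19.3-fold to 63.1-fold in the cKO ex vivo libraries. After stimulation the ratio was 2.93 to 12.2 in WT and 5.43 to 13.3 in cKO. Il27, which encodes the partner in IL-27, had means of 1.97 (WT) and 2.07 (cKO) scaled TPM ex vivo, and of 3.12 (WT) and 5.49 (cKO) after stimulation. It rose with stimulation in cKO by 1.07 (log2, adjusted p = 0.0339), a call lost in 7 of 20 alternatives. Of 7 other cytokine genes of the IL-10 and IL-12 families, Il27 included, 5 were tested, and the only other call was a rise of Il23a with stimulation in cKO by 1.08 (adjusted p = 0.0239), lost in 6 of 20 alternatives, among them the fits without cKO ex vivo 1, cKO ex vivo 3, cKO stimulated 2 or cKO stimulated 3. Il27 and Il23a both passed the filter only through the stimulated groups, where they are high. With stimulation in cKO 20.6% of all tested genes were called higher. The Il12a ratios carry the counting error of 15 to 41 reads.

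**Figure D2:**
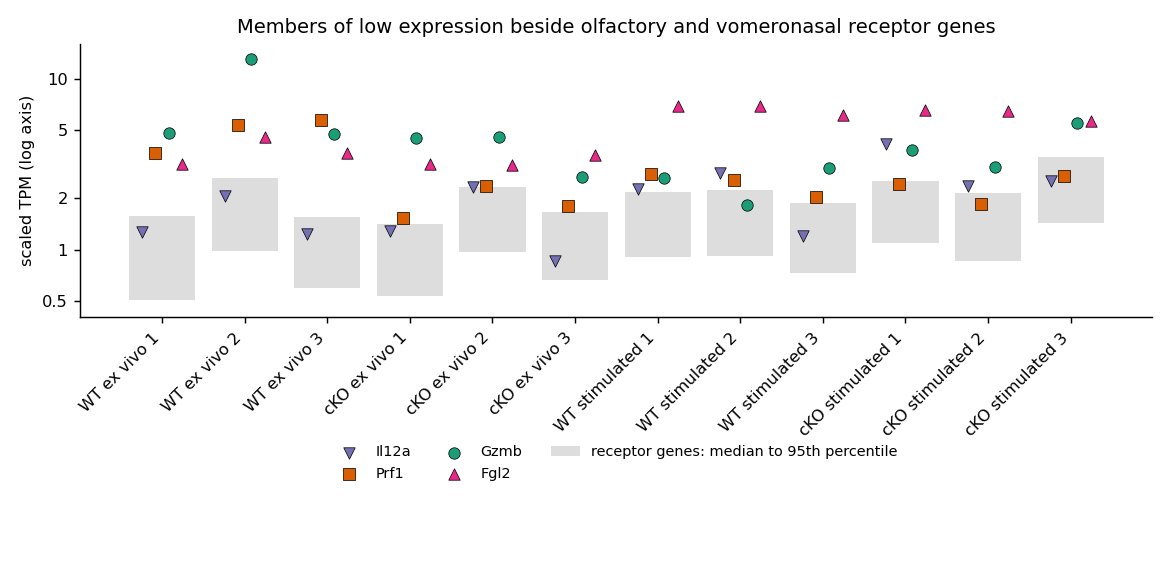
Scaled TPM (log axis) of Il12a, Prf1, Gzmb and Fgl2 in each of the 12 libraries, with grey bars from the median to the 95th percentile of 1716 olfactory and vomeronasal receptor genes in the same library. Il12a lies mostly within or just above the bars, Prf1 clears them in WT ex vivo (3.68 to 5.76) and lies near their upper end in the cKO libraries (1.53 to 2.70), and Fgl2 lies above them throughout.

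Gzmb (ENSMUSG00000015437, mm9 chromosome 14, 56877693 to 56881097, minus strand) was a minor transcript in these Treg, with 24 to 137 reads per library. Ex vivo it was at 4.79, 13.0 and 4.73 scaled TPM in WT and at 4.49, 4.57 and 2.64 in cKO. After stimulation it was at 2.63, 1.82 and 3.01 in WT and at 3.82, 3.05 and 5.52 in cKO. WT ex vivo 2 was far above the other WT libraries and set the wide spread of its group, 7.51 ± 4.77 (SD, n = 3). The cKO libraries all lay below the WT libraries ex vivo, as for 7.13% of tested genes, and all above them after stimulation, as for 17.1%, but neither difference passed. They were -0.69 (log2, 95% interval -1.43 to 0.06, adjusted p = 0.463) ex vivo and 0.54 (95% interval -0.20 to 1.29, adjusted p = 0.377) after stimulation. Leaving out 1 library gave -0.905 to -0.26 ex vivo and 0.382 to 0.678 after stimulation. Stimulation lowered Gzmb in WT by 1.17 (SE 0.34, adjusted p = 0.0338). This call was lost in 7 of 21 alternatives, among them the fit without WT ex vivo 2, where the fall was 0.74 (adjusted p = 0.0757), and those without WT stimulated 1, 2 or 3 (up to 0.107). In cKO stimulation gave 0.06 (95% interval -0.68 to 0.81, adjusted p = 0.892), with a sign that changed between scalings. The difference between these responses, 1.23 (95% interval 0.18 to 2.29), had an unadjusted p of 0.0262 and an adjusted p of 0.368.

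Prf1 (ENSMUSG00000037202, mm9 chromosome 10, 60760584 to 60767011, plus strand) was the only member called lower in cKO, a call limited by how it came to be tested. Ex vivo it was at 3.68, 5.38 and 5.76 scaled TPM in WT, from 78 to 148 reads, and at 1.53, 2.36 and 1.79 in cKO, from 43 to 47 reads. After stimulation it was at 2.76, 2.56 and 2.03 in WT and at 2.43, 1.84 and 2.70 in cKO. WT ex vivo alone stood out, at 4.94 ± 1.10 (SD, n = 3), while the other groups had means of 1.89 to 2.45 and overlapped. As only that group was above 3 TPM, Prf1 was tested only because it was high there. The difference ex vivo was -1.03 (log2, SE 0.21, 95% interval -1.49 to -0.57, adjusted p = 0.0265). The call was lost in 6 of 20 alternatives, without WT ex vivo 2, WT ex vivo 3, cKO ex vivo 1 or cKO ex vivo 3 (adjusted p up to 0.134) among them. In cKO ex vivo Prf1 lay above 98.5% of the silent receptor genes, and in cKO stimulated above 94.9%.

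After stimulation Prf1 did not differ past the threshold between the genotypes, by -0.06 (log2, 95% interval -0.52 to 0.40, adjusted p = 0.892). Stimulation lowered it in WT by 0.77 (SE 0.21, adjusted p = 0.0242), a call lost in 5 of 20 alternatives, namely with the TPM as deposited (0.102) and without WT ex vivo 2, WT ex vivo 3, WT stimulated 2 or WT stimulated 3 (0.0527 to 0.114). In cKO the change was 0.20 (95% interval -0.26 to 0.66, adjusted p = 0.443), turning to -0.02 and -0.17 under other scalings. The responses differed by 0.97 (95% interval 0.32 to 1.62, adjusted p = 0.219), which did not pass and which contains the WT ex vivo group that let Prf1 be tested. The WT stimulated libraries (2.03 to 2.76) overlapped those of cKO ex vivo (1.53 to 2.36). The summed level of 4 NK cell markers, cells rich in both granule transcripts, was 4.02 to 8.14 in WT and 4.05 to 8.14 in cKO ex vivo, and 6.03 to 8.21 and 9.03 to 13.9 after stimulation, and its part in the Gzmb and Prf1 values was not tested. Each of these markers stood at 0.435 to 4.47 scaled TPM. The median of the silent receptor genes was also higher in cKO stimulated (1.18) than in WT stimulated (0.871).

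Fgl2 (ENSMUSG00000039899, mm9 chromosome 5, 20878460 to 20884192, plus strand, overlapped on the other strand by Ccdc146) was the only member called higher with stimulation. Ex vivo it was at 3.18, 4.59 and 3.69 scaled TPM in WT and at 3.19, 3.13 and 3.57 in cKO. After stimulation it was at 6.90, 6.97 and 6.13 in WT and at 6.53, 6.49 and 5.65 in cKO. Every stimulated library lay above every ex vivo library of its genotype, as for 22.3% of tested genes in WT and 29.6% in cKO, where 39.4% and 49.1% did not overlap in either direction. Fgl2 rose by 0.68 (log2, SE 0.13, adjusted p = 0.00416) in WT and by 0.75 (SE 0.13, adjusted p = 0.00183) in cKO, that is to 6.67 ± 0.47 and 6.22 ± 0.50 scaled TPM. The median change of all tested genes was 0.146 and 0.276 in these comparisons, and among 13 silent receptor genes that passed the filter it was 0.18 and 0.54. With the silent level of each library subtracted, an alternative chosen after the values were seen, the rises were 0.78 and 0.88 and were still called. They were lost where libraries were scaled over all genes of at least 1 TPM (0.48 with an adjusted p of 0.096, and 0.29 with 0.211) and, in cKO, with the TPM as deposited (0.48, adjusted p = 0.0736).

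Between the genotypes Fgl2 differed by -0.16 (log2, 95% interval -0.45 to 0.13, adjusted p = 0.778) ex vivo and -0.09 (95% interval -0.38 to 0.20, adjusted p = 0.717) after stimulation. These intervals leave out a change of 2-fold on this scale in either direction. The summed markers of macrophages and monocytes, which also express Fgl2, were higher after stimulation, at 20.3 to 28.9 scaled TPM against 13.4 to 18.4 in WT and at 24.1 to 28.6 against 13.1 to 19.2 in cKO. The highest of them was Cd68, at 6.11 to 6.87 in WT ex vivo and 11.1 to 15.2 in WT stimulated, while Lyz2 was at 0.813 to 1.54 and 1.18 to 2.29. Their part in the Fgl2 values was not tested.

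Areg (ENSMUSG00000029378, mm9 chromosome 5, 91568641 to 91577458, plus strand) had the largest fitted change of the members on the log2(scaled TPM + 1) scale, although by the ratio of means Gzmb with stimulation in WT (0.331) was as low as Areg (0.335). Ex vivo it was at 45.6, 36.4 and 55.5 scaled TPM in WT and at 45.4, 26.4 and 40.5 in cKO. After stimulation it was at 16.2, 14.6 and 15.2 in WT and at 17.8, 23.1 and 21.4 in cKO. Areg fell with stimulation by 1.50 (log2, SE 0.19, adjusted p = 0.000296) in WT, from 45.8 ± 9.55 to 15.3 ± 0.81 scaled TPM, and was called in all 21 alternatives. In cKO it fell by 0.79 (SE 0.19, adjusted p = 0.0111), from 37.4 ± 9.87 to 20.8 ± 2.68, which missed the threshold only without cKO ex vivo 1 (adjusted p = 0.0518). The difference between these falls was 0.71 (95% interval 0.10 to 1.31), with an unadjusted p of 0.026 and an adjusted p of 0.368.

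Between the genotypes Areg overlapped ex vivo, with -0.30 (log2, 95% interval -0.73 to 0.13, adjusted p = 0.653). Leaving out 1 library gave -0.458 to -0.073 for this difference. After stimulation all cKO libraries were above all WT libraries, as for 17.1% of tested genes, but the difference of 0.41 (95% interval -0.02 to 0.83, adjusted p = 0.269) did not pass. Its means ranked, from high to low, WT before cKO ex vivo and cKO before WT after stimulation, and the ex vivo neighbours did not differ beyond their spread. The other EGF family ligands gave no call in any comparison, with 2 of 6 (Hbegf and Egf) tested.

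**Figure D3:**
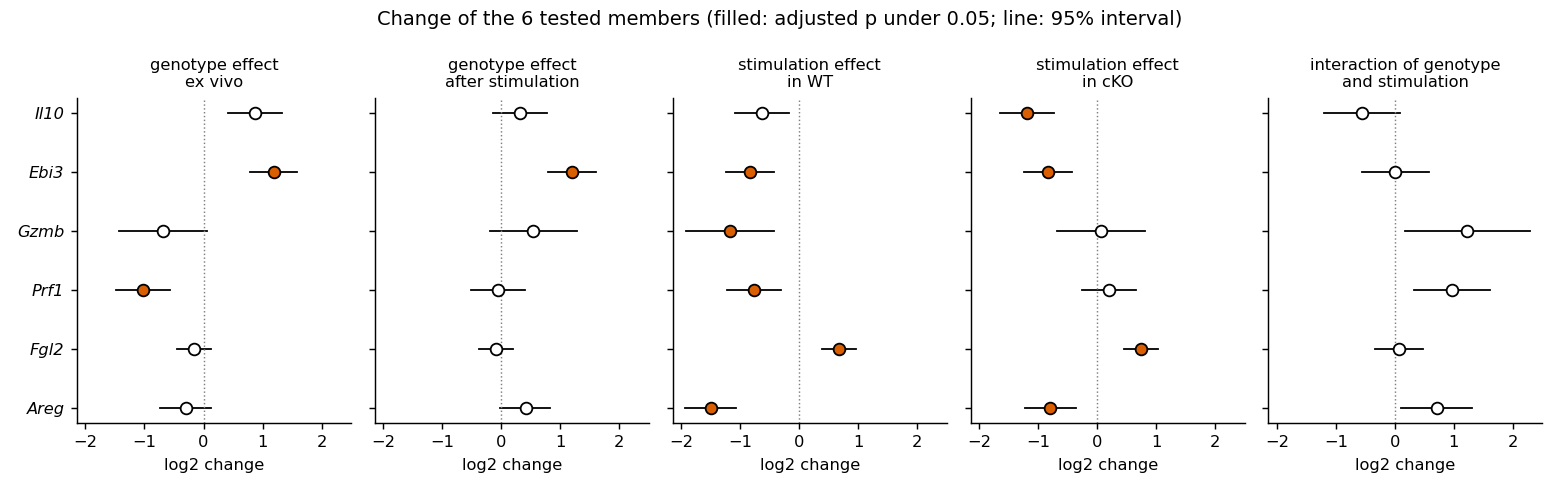
Log2 change of the 6 tested members in the 5 comparisons, on the log2(scaled TPM + 1) scale, with lines for the 95% interval and filled points for an adjusted p under 0.05. Ebi3 is the only member filled in both genotype panels (1.19 and 1.20), and no member is filled in the interaction panel.

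The receptors and partner chains of the members formed a list of 11 genes, of which 7 were tested. Ex vivo 1 was called higher in cKO and none lower, and after stimulation 3 were higher and 2 lower, with list medians of -0.04 and 0.54 (log2). Over all tested genes 1.89% were higher and 0.725% lower ex vivo and 1.91% and 1.66% after stimulation, with medians of 0.001 and 0.096, which hold for the lists that follow as well. With stimulation 7.77% of all tested genes were higher and 11.0% lower in WT, and 20.6% higher and 16.2% lower in cKO. Il10ra, the ligand-binding chain of the IL-10 receptor, rose in cKO by 0.53 (adjusted p = 0.0312) ex vivo and by 0.69 (adjusted p = 0.00641) after stimulation. Its mean went from 14.99 to 22.1 scaled TPM ex vivo, and the ex vivo call was lost in 12 of 21 alternatives. After stimulation Il12rb2, a chain of the IL-12 and IL-35 receptors, rose by 1.16 (adjusted p = 0.0184) from 2.24 to 6.27 scaled TPM. It passed the filter only through the cKO stimulated group, where it is high, and the call was lost in 7 of 21 alternatives. The shared chain gp130 (Il6st) and the IL-27 receptor chain Il27ra fell by 0.57 and 0.56 (adjusted p = 0.0442 and 0.0459), and were not called in 13 and 15 of 21 alternatives. With stimulation 4 of the 7 fell in WT, Il27ra most by 1.32 (adjusted p = 5.65e-05), and in cKO 4 fell and 2 rose. The receptors that respond to FGL2 and to amphiregulin, Fcgr2b, Fcgr3 and Egfr, stayed under the filter.

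Of 23 genes of the cytotoxic granule and of killing by death ligands, 16 were tested, and the granzymes Gzma, Gzmd, Gzme, Gzmf, Gzmg, Gzmk and Gzmn were too low. In the genotype comparison ex vivo 3 rose and 1 fell, and after stimulation 3 rose and 1 fell, with list medians of -0.05 and 0.00 (log2) against 0.001 and 0.096. Ctsw, a cathepsin of cytotoxic cells, fell in cKO by 0.91 (adjusted p = 0.0311) ex vivo and by 1.09 (adjusted p = 0.00949) after stimulation, and the ex vivo call was lost in 10 of 21 alternatives (adjusted p up to 0.28). Serpinb6b, a serpin of the family that inhibits granzymes, rose by 0.73 (adjusted p = 0.0069) and by 0.91 (adjusted p = 0.00142). Serpinb9, an inhibitor of granzyme B, rose after stimulation by 0.78 (adjusted p = 0.0171), as did Tnfsf10, the death ligand TRAIL, by 0.73 (adjusted p = 0.0088). The Serpinb9 call was lost in 6 of 21 alternatives, also without WT stimulated 1, WT stimulated 2, cKO stimulated 1 or cKO stimulated 2. The granule protein gene Nkg7 rose ex vivo by 0.78 (adjusted p = 0.0468), a call lost in 16 of 21 alternatives, as did Stx11, a syntaxin of granule release, by 0.87 (adjusted p = 0.00309). Stimulation lowered 8 of these genes and raised 1 in WT, and lowered 9 and raised 2 in cKO (over all tested genes 11.0% lower and 7.77% higher in WT, 16.2% and 20.6% in cKO). Among them Nkg7 fell by 1.43 (adjusted p = 0.000231) and by 1.91 (adjusted p = 2.52e-05), and Fasl fell in WT by 1.32 (adjusted p = 9.77e-05).

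All 23 transcription factors on a list of those known to act on Il10, Gzmb, Prf1 or Areg in T cells were tested. In cKO ex vivo 8 rose and none fell, with a list median of 0.33 (log2) against 0.001 over all tested genes. Irf4 rose by 1.12 (adjusted p = 0.00156), from 41.0 to 90.4 scaled TPM, and Bhlhe40, a factor that restrains Il10 in T cells, by 1.12 (adjusted p = 0.00671). Tbx21, the gene of T-bet, rose by 1.04 (adjusted p = 0.00178) and Ahr, the aryl hydrocarbon receptor, by 0.85 (adjusted p = 0.00535). After stimulation 7 rose and 1, Ets1, fell, with a list median of 0.28 against 0.096. Tbx21 again rose, by 1.73 (adjusted p = 8.71e-05), together with Nfil3 by 1.39 (adjusted p = 0.00106), Foxp3 by 0.96 (adjusted p = 0.0115) and Gata3 by 0.76 (adjusted p = 0.0164). Foxp3 was lost in 4 of 21 alternatives, also without WT stimulated 2 or cKO stimulated 1, and Gata3 in 6, also without WT stimulated 1, WT stimulated 2, cKO stimulated 1 or cKO stimulated 2. Stimulation raised 5 and lowered 11 of these factors in WT, and raised 6 and lowered 10 in cKO, while 18.8% of all tested genes were called in WT and 36.8% in cKO. Irf4 rose in WT by 1.56 (adjusted p = 1.86e-05) and Bhlhe40 fell there by 1.60 (adjusted p = 7.77e-05) and in cKO by 2.61 (adjusted p = 2.88e-06).

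**Figure D4:**
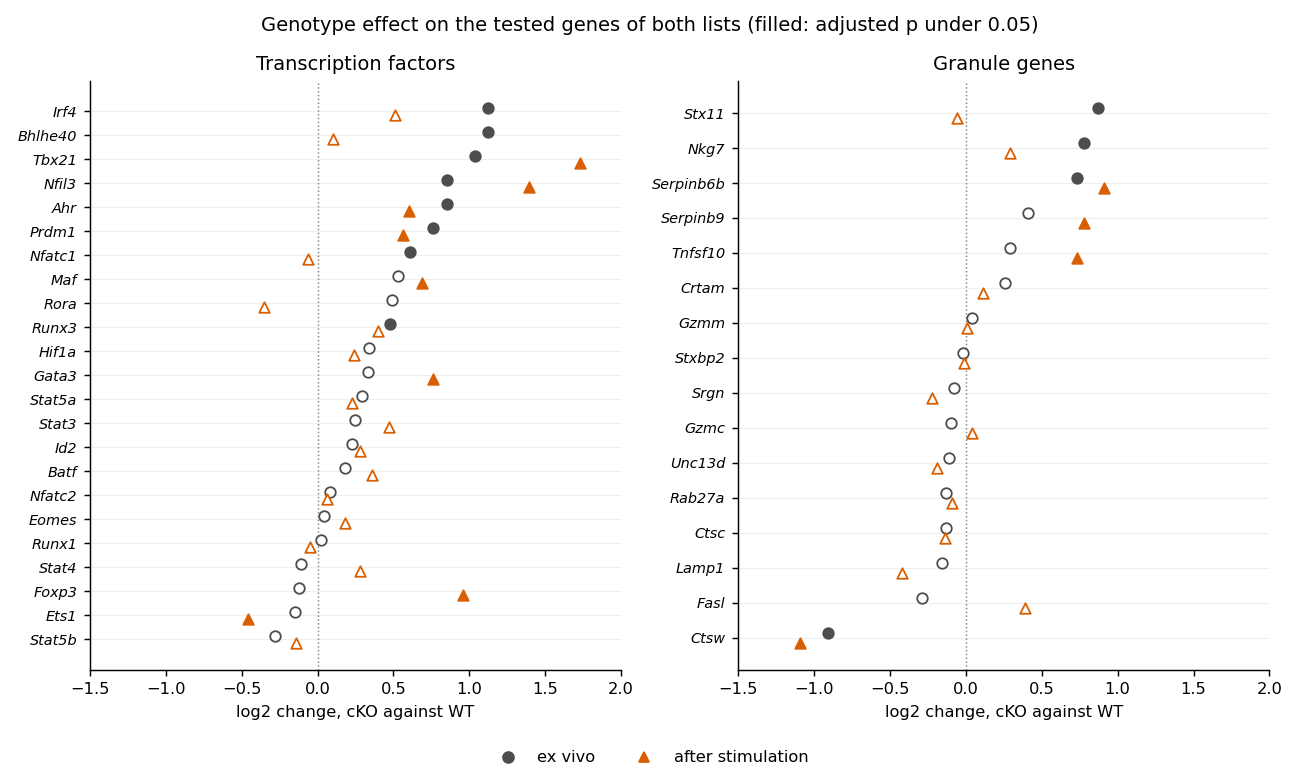
Log2 change in cKO against WT of the tested genes of both lists, with the transcription factors on the left and the granule genes on the right; circles are ex vivo, triangles after stimulation, and filled symbols have an adjusted p under 0.05. The transcription factors lie mostly to the right of 0, with 8 filled circles, and Ctsw is the only granule gene filled on the left, at -0.91 and -1.09.

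The receptors upstream of Areg and of effector Treg were 10 genes, all tested. In cKO 3 rose ex vivo and 4 after stimulation, and none fell, with list medians of 0.46 and 0.35 (log2), against 1.89% and 1.91% of all tested genes higher and medians of 0.001 and 0.096. Il1rl1, the receptor ST2 for IL-33, which is known to induce Areg in Treg, rose by 0.97 (adjusted p = 0.00769) ex vivo and by 0.89 (adjusted p = 0.00878) after stimulation. Its mean was 4.32 in WT and 9.42 in cKO ex vivo, and 17.3 in WT and 33.2 in cKO after stimulation. It rose with stimulation in both genotypes, by 1.78 (adjusted p = 2.06e-05) in WT and by 1.70 (adjusted p = 1.97e-05) in cKO, whereas Areg fell in the same comparisons. Klrg1, a marker of effector Treg, rose in cKO ex vivo by 0.86 (adjusted p = 0.00156), and Il18r1, a chain of the IL-18 receptor, by 0.65 (adjusted p = 0.00856). After stimulation Tnfrsf9 (4-1BB) rose by 0.94 (adjusted p = 0.00831), Icos by 0.90 (adjusted p = 0.00269) and Il2ra by 0.80 (adjusted p = 0.0127). Il2ra was lost in 5 of 21 alternatives, also without WT stimulated 1, cKO stimulated 1 or cKO stimulated 2, and Il1rl1 after stimulation in 3, also without WT stimulated 2.

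The other suppressive molecules of Treg made up 15 genes, all tested, and 3 of them rose in cKO ex vivo and 3 after stimulation, with none lower. Their list medians were 0.41 and 0.17 (log2), against 0.001 and 0.096 over all tested genes. Lag3, an inhibitory receptor that binds MHC class II, rose by 1.15 (adjusted p = 0.000454) ex vivo, from 17.1 to 39.1 scaled TPM, and by 0.62 (adjusted p = 0.0127) after stimulation. Cd274, the gene of PD-L1, rose by 0.68 (adjusted p = 0.0193) and by 0.53 (adjusted p = 0.0488), calls lost in 6 and 16 of 21 alternatives, the former without WT ex vivo 2, WT ex vivo 3, cKO ex vivo 1 or cKO ex vivo 3 among them. Pdcd1 rose ex vivo by 0.55 (adjusted p = 0.0374), a call lost in 15 of 21 alternatives (adjusted p up to 0.632). Entpd1, the gene of CD39, rose after stimulation by 0.65 (adjusted p = 0.0108), lost in 3 of 21 alternatives, also without WT stimulated 2. With stimulation 4 rose and 5 fell in WT, where 18.8% of all tested genes were called, and 5 rose and 6 fell in cKO, where 36.8% were. Pdcd1 rose in WT by 3.17 (adjusted p = 1.37e-07) and Itgb8, an integrin chain that activates TGF-β, by 1.71 (adjusted p = 1.26e-05), as Fgl2 did, while Ctla4 fell by 1.85 (adjusted p = 3.71e-06), as Areg did.

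A list of 10 early genes of T cell stimulation shows how the stimulated cells had responded. Egr3 and Egr2, targets of NFAT signalling, rose with stimulation in WT by 1.70 (adjusted p = 5.49e-05) and 1.48 (adjusted p = 6.81e-05). Of the 10 genes 5 rose and 3 fell in WT, and 6 rose and 3 fell in cKO, against 7.77% higher and 11.0% lower of all tested genes in WT and 20.6% and 16.2% in cKO. Ifng and Cd69, an early activation marker, were called lower with stimulation in both genotypes. Ifng fell in WT by 2.24 (adjusted p = 0.000148), and in cKO its mean went from 71.2 to 28.5 scaled TPM. Cd69 fell in cKO by 1.71 (adjusted p = 0.000125), from 330 to 99.4 scaled TPM, and in WT from 387.7 to 146.4. Ifng was higher in cKO in both conditions, by 1.60 (adjusted p = 0.00881) and by 2.54 (adjusted p = 0.000438), and Il2 in the stimulated cells by 2.10 (adjusted p = 0.00586), from 1.49 to 9.62 scaled TPM, where the cKO stimulated group alone let Il2 pass the filter. Ex vivo Nr4a1, an early gene of receptor signalling, fell in cKO by 0.78 (adjusted p = 0.0426), a call lost in 14 of 21 alternatives. Of the genotype changes named from the lists, those of Tbx21 and Ifng in both conditions and of Lag3 ex vivo were called in all 21 alternatives, and each of the others was lost under at least 1 other scaling.

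The genes with the most similar pattern to each member over the 12 libraries were sought among 13318 genes of at least 5 TPM, as a description, since the libraries share their groups. For Ebi3 they were Cxcl10 (Pearson r = 0.951), Cd74 (0.949) and Ifih1 (0.948), of which Cxcl10 and Ifih1 are interferon-induced and Cd74 encodes the MHC class II invariant chain. Cd74, which B cells also express, had means of 41.96 (WT) and 89.3 (cKO) scaled TPM ex vivo, and of 30.7 (WT) and 57.1 (cKO) after stimulation. For Il10 they were Zyx (0.953), Ttn (0.951) and Gramd1b (0.945), and for Areg they were Fasl (0.979), Ptp4a1 (0.977) and Mcl1 (0.969). For Fgl2 they were Insig2 (0.979), B130055M24Rik (0.978) and Zfp192 (0.976), and for Gzmb, where a single library weighs heavily, Gm16074 (0.896), Npm3 (0.886) and 3200002M19Rik (0.881). Among the members themselves, Il10 and Ebi3 were closest (r = 0.830) and Fgl2 and Areg furthest apart (r = -0.861). Gzmb and Prf1, whose proteins act together, had r = 0.604.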

How the data were processed

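Expression was measured by RNA sequencing of 12 libraries in 4 groups of 3. As the labels and the study's methods state, ribosomal RNA was depleted, strand-specific libraries were sequenced as 51 bp paired ends, and reads were aligned with STAR 2.6.0c to mouse build mm9 and assigned to exons with HTSeq 0.6.1 using the strand. The values the authors deposited are a signal in TPM for every gene, each library summing to 1000000 over 36222 genes, and log2 values of the TPM with the value of 1 read added. Dividing the TPM by that added value returned whole reads (within 0.01) for 99.9977% of values, which gives the depths and reads quoted here. A second table of the authors holds their own fold changes, test statistics and p-values, and was not used. Depth limits the precision of low genes, and no counting interval is given.

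The TPM were not treated as counts. Libraries were scaled by an unweighted trimmed mean of M-values (30% of M-values and 5% of A-values trimmed) over genes of at least 5 TPM in the highest group mean. Genes of at least 3 TPM in the highest mean of the deposited TPM were fitted as log2(scaled TPM + 1), a scale on which changes of low genes come out too small. The fit used limma 3.58.1 in R 4.3.3 (lmFit, contrasts, eBayes with trend) on all 12 libraries with the group as the only term, and Python 3.11.15 for the rest. Two-sided p-values received the Benjamini-Hochberg adjustment separately in 5 comparisons and measure the spread between animals within a group. The script was tested on simulated data. Alternatives were filters at 1 TPM, at 5 TPM and none, no scaling, scaling over genes of at least 1 TPM, median of ratios, a pseudocount of 0.25, the replicate number as a block, each library left out, and, added after the data were seen, subtraction of the silent median. The members, lists and tests were chosen with earlier results of these data known. From each list the text names at most 4 called genes with the largest change in a comparison, and for each member of at least 5 TPM the 3 genes of highest Pearson r. Positions are from GENCODE vM1 on NCBIM37 (mm9), which placed 35859 genes. Promoters are RefSeq windows on GRCm38.p6. Protein sequences were not used here. One marker gene is not reported here.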

Additional observations from a re-analysis of the deposited data

Results flagged for a closer look

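The effect of stimulation on Stx11 differed between the genotypes in the test of the interaction, by -0.93 (log2, SE 0.16, adjusted p = 0.0367 by limma). Its mean went from 37.2 to 43.2 scaled TPM in WT and from 68.7 to 41.5 in cKO. The call was lost in 15 of 21 alternatives, with adjusted p-values between 0.0216 and 0.38, and the direction was kept in all of them.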

How the results depend on the processing

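In the order genotype ex vivo, genotype after stimulation, stimulation in WT, stimulation in cKO and interaction, limma made 556, 757, 3985, 7814 and 89 calls. With the TPM as deposited they were 222, 196, 1938, 4476 and 0, the last with 4573 genes at an unadjusted p under 0.05. Scaling over genes of at least 1 TPM gave 86, 103 and 2159 for the first 3 and 0 for the interaction, with 1943 genes at an unadjusted p under 0.05. Of the calls in the first 4 comparisons 72.3%, 53.5%, 41.4% and 56.0% were higher, against 95%, 28.1%, 65.7% and 17.5% with the TPM as deposited, and scaling over 1 TPM gave 16.5% and 11.5% for stimulation in WT and cKO. At 5 TPM 39.5% were higher for stimulation in cKO. These scalings moved the median of all tested genes for the interaction to -0.37 and -0.19, and for stimulation in cKO to 0.004 and -0.18. The replicate block gave 361, 500 and 46 for both genotype effects and the interaction. Correlations of the deviations from the group means ran from -0.21 to 0.23 for same-numbered libraries and from -0.185 to 0.226 for the others. Between WT and cKO ex vivo the same-numbered pairs had 0.13, 0.226 and 0.081, above the differently numbered pairs (-0.155 to 0.053). Whether the numbers mark a shared batch was not tested. Under the block Gzmb in WT (adjusted p = 0.0595) and Prf1 ex vivo (0.0653) were not called. The interaction had 147 calls at 5 TPM and 236 with the silent median subtracted. Leaving out 1 library gave 242 to 590, 331 to 838, 2848 to 4250, 4109 to 9018 and 5 to 114 calls, lowest without cKO ex vivo 3, WT stimulated 2, WT stimulated 1, cKO ex vivo 1 and cKO ex vivo 1 (5 also without cKO ex vivo 3).

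Over 630 member results under alternatives, 576 kept direction and side of the threshold, 26 lost the call, 9 gained it and 19 changed sign, none of them called. With the TPM as deposited and over 1 TPM the interaction of Ebi3 was -0.50 and -0.30, that of Fgl2 -0.37 and -0.19, stimulation in cKO of Gzmb -0.20 and -0.39 and of Prf1 -0.023 and -0.17, and Fgl2 by genotype ex vivo was 0.032 with the TPM as deposited. Leaving out 1 library gave -0.21 to 0.18 for the Ebi3 interaction, -0.042 to 0.17 for that of Fgl2, -0.14 to 0.18 for Gzmb with stimulation in cKO and -0.15 to 0.032 for Prf1 by genotype after stimulation. The causes were not tested. Prf1 could not be fitted at 5 TPM. Of 92 changes named from the lists and for Ikzf1, 46 were called in every alternative and none changed sign. Depth limits Il12a, Gzmb and Prf1, at 15 to 148 reads per library.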
